A study of Mus musculus with 25 samples.

Results

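The genes described here encode the matrix metalloproteinases (Mmp), the ADAM and ADAMTS proteases and the tissue inhibitors of metalloproteinases (Timp). They were taken by symbol, as every gene whose name starts with Mmp, Timp, Adam or Adamts followed by a digit. This gave 79 of the 24537 genes in the table: 16 secreted MMPs, 7 membrane-bound MMPs, 4 TIMPs, 33 ADAMs and 19 ADAMTS proteases. Of these, 31 reached a mean of 5 CPM (counts scaled to a common library total) in at least 1 of 10 groups of libraries and are described one by one. The other 48 stayed below it, 11 of them under 1 CPM in every group. The lowest gene inside the limit was Adamts14 with a highest group mean of 6.84 CPM, and the nearest outside was Mmp28 with 4.95 CPM.

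RNA was sequenced in 25 libraries of 200 sorted cells each, from C57BL6 mice given a control diet with 10% fat (CD) or a high fat diet with 45% fat (HFD). White adipose tissue (eWAT) gave 4 macrophage populations. The Tim4+ cells were divided into pop1, with low MHCII, and pop2, with high MHCII. The Tim4- cells were divided into pop3, CD11c- with high MHCII, and pop4, which was both CD11c+ and MHCII+. Each had 2 CD libraries (numbers 7 and 8, titled CD-CD) and 2 HFD libraries (numbers 2 and 3). Blood monocytes, sorted on CD115 and Ly6C, had 6 CD libraries (1, 2 and 3 titled CD, and 6, 7 and 8 titled CD-CD) and 3 HFD libraries. The adipose diet comparison is therefore also a comparison of title series, and diet and series cannot be told apart there. Adipose cells went through a collagenase digestion with flavopiridol, an inhibitor of transcription, and the labels describe no digestion of blood, so tissue and handling cannot be told apart either. Age, sex and the length of the diets are not given in the sources used here, nor is it said that libraries come from separate animals, so p-values measure the spread between libraries, which may be technical.

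Matrix metalloproteinases are zinc proteases that cut collagens, elastin, gelatin and many secreted proteins; most are released as inactive precursors, and a few are held on the membrane. ADAMs are membrane proteases, several of which release cytokines, growth factors and receptors from the cell surface, and ADAMTS proteases are secreted enzymes that process procollagens and proteoglycans. TIMPs bind the active site of these enzymes and block it. Macrophages and monocytes are known producers of several of these proteases, and in adipose tissue matrix turnover accompanies expansion of the fat depot.

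Library totals ranged from 3752835 to 9336395 counts, and 3 counts corresponded to 0.342 to 0.700 CPM. The sort marker Tim4 (gene Timd4) averaged 439 ± 157 CPM in pop1 and 313 ± 252 CPM in pop2 (SD, n = 4 each), against at most 11.9 CPM in any pop3 library. Counts in olfactory and vomeronasal receptor genes, which myeloid cells are not known to express, summed to 200 to 783 CPM in pop1 to pop3, 80.7 to 206 CPM in pop4 and 85.4 to 243 CPM in monocytes. This background was thus lower in monocytes and pop4. With this sum as a covariate, part of a difference between groups can be taken up by the covariate itself. Over all genes, calls between pop3 and pop4 went from 720 higher and 394 lower to 105 and 41. Calls for Tim4 went from 1232 higher and 1322 lower to 158 and 260. A call lost with the covariate can therefore not be assigned to background or to the cells. Where a call of a described member is given below, its loss with the covariate is named.

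The secreted proteases divided the cells sharply. Mmp8, Mmp12 and Mmp9 each had 1 population, or 1 set of populations, with high levels and others at or near the limit of detection. In bulk libraries of this kind, fewer cells with a transcript and less transcript per cell cannot be told apart.

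Mmp8, the neutrophil collagenase, was the metalloproteinase of blood monocytes. The 6 CD monocyte libraries had 569 to 934 CPM (median 692), and the 3 HFD libraries had 781, 775 and 521 CPM. In the 16 adipose libraries Mmp8 ranged from 0.124 to 7.94 CPM with a median of 0.838. The highest adipose value, in pop4 CD library 8, was far below the lowest monocyte value, so the ranges did not overlap. Mmp8 was lower in adipose macrophages by a log2 difference of -9.29 (SE 0.35, adjusted p = 3.39e-14, edgeR quasi-likelihood F test). Neutrophil genes were summed in the same libraries: the 10 genes gave 7.90 to 237 CPM in monocytes and 6.67 to 38.5 CPM in adipose cells. Of the 7 neutrophil genes tested, 3 were higher and 2 lower in monocytes. In monocytes S100a8 reached 135 CPM and S100a9 reached 79.9 CPM, while Camp did not exceed 0.127 CPM and was at 0 in the 3 HFD libraries, as was Ngp. The highest neutrophil sums, in CD library 3 (237 CPM) and CD library 2 (128 CPM), were in the libraries with the highest Mmp8 (934 and 868 CPM), and the lowest sum, in CD library 6 (7.90 CPM), was in the CD library with the lowest Mmp8 (569 CPM). In CD libraries 1, 7 and 8 the order was reversed, with sums of 15.8, 22.3 and 28.6 CPM beside 715, 669 and 593 CPM of Mmp8. In HFD libraries 1, 2 and 3 the sums were 18.2, 23.1 and 9.67 CPM beside 781, 775 and 521 CPM. The part of neutrophil RNA in the result was not tested.

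Mmp12, the macrophage elastase, marked pop4. Its 4 libraries had 393 and 1333 CPM on CD and 851 and 1017 CPM on HFD. In pop3 the CD libraries had 1.07 and 4.91 CPM and the HFD libraries 10.5 and 183 CPM. All pop1 libraries lay between 0.146 and 0.912 CPM and all pop2 libraries between 1.59 and 2.10 CPM. Every pop4 library was thus above every other library, a pattern that 1.07% of all 16961 genes tested shared and that Adam8 was the other member to show. Mmp12 was lower in pop3 than in pop4 (log2 difference -5.72, SE 1.11, adjusted p = 0.00363) and lower in Tim4+ than in Tim4- populations (-7.08, SE 0.89, adjusted p = 1.42e-05). With the background sum as a covariate the difference between pop3 and pop4 was -5.38 and no longer passed the test (adjusted p = 0.191). Monocytes reached at most 24.7 CPM. Mmp12 was higher in adipose cells than in monocytes (2.51, SE 0.81, adjusted p = 0.0193), a call lost with the background covariate (adjusted p = 0.174) with no filter on low counts, and without pop1 CD library 7, pop1 HFD library 2 or monocyte HFD library 2 or 3.

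Mmp9, gelatinase B, had the opposite distribution. In pop1 the libraries had 231 and 163 CPM on CD and 61.6 and 120.1 CPM on HFD. In pop2 they had 324 and 195 CPM on CD and 40.1 and 153 CPM on HFD. In pop3 they had 254 and 144 CPM on CD and 31.9 and 95.1 CPM on HFD. In pop4 they had 10.3 and 4.04 CPM on CD and 0.370 and 0.124 CPM on HFD, and no monocyte library exceeded 1.13 CPM. The ranges of pop1, pop2 and pop3 overlapped, and all of their libraries were above all of pop4. Mmp9 was higher in pop3 than in pop4 (log2 difference 6.35, SE 0.77, adjusted p = 2.74e-05), higher in Tim4+ than in Tim4- populations (3.55, SE 0.47, adjusted p = 2.83e-05) and higher in adipose cells than in monocytes (6.37, SE 0.58, adjusted p = 2.84e-08). The Tim4 difference fell to 2.10 and did not pass the test with the background covariate (adjusted p = 0.253), whereas the difference between pop3 and pop4 did (4.64, adjusted p = 0.0375).

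**Figure D1:**
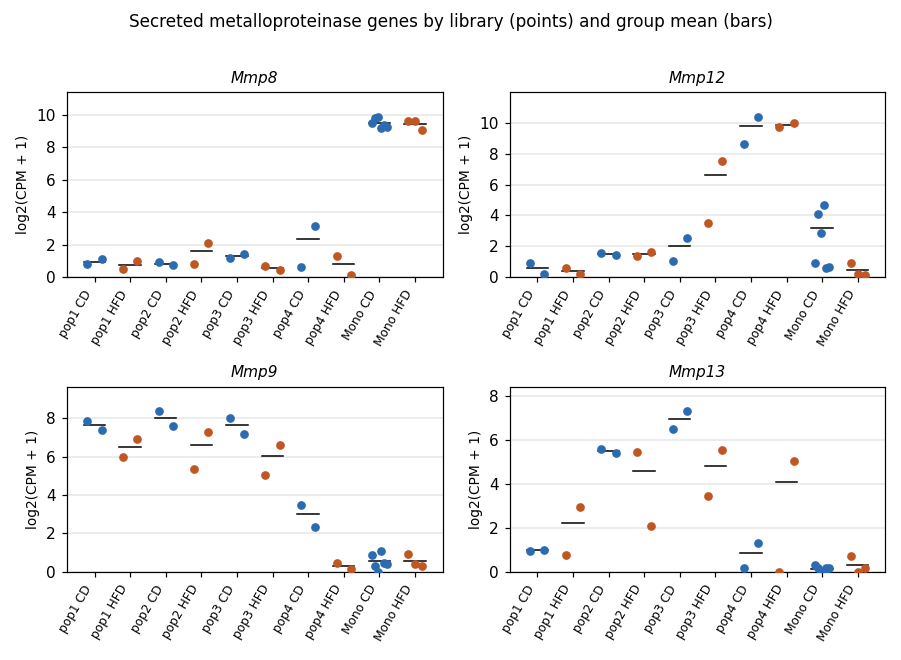
Levels of 4 secreted metalloproteinase genes as log2(CPM + 1) on the vertical axis, by group on the horizontal axis; points are libraries (blue CD, orange HFD) and bars are group means. Mmp8 is high in all 9 monocyte libraries only, Mmp12 is at 393 CPM or more in all 4 pop4 libraries, and Mmp9 is at 31.9 CPM or more in every pop1, pop2 and pop3 library.

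Mmp13, collagenase 3, was found in pop2 and pop3. The pop2 libraries had 47.7 and 41.7 CPM on CD and 42.5 and 3.27 CPM on HFD, and the pop3 libraries had 89.7 and 155 CPM on CD and 10.1 and 44.9 CPM on HFD. No pop1 library exceeded 6.66 CPM, no monocyte library exceeded 0.642 CPM, and pop4 had 1 library at 32.2 CPM with the others at 1.48 CPM or below. Mmp13 was higher in adipose cells than in monocytes (log2 difference 5.86, SE 1.09, adjusted p = 2.94e-04). The call was lost without pop4 HFD library 3, which held the 32.2 CPM. That fit left pop4 HFD with library 2 alone, at 0 counts of Mmp13, and a group at 0 has no finite log2 mean. The loss can therefore not show that the call rests on 1 library. The difference between pop1 and pop2 (-4.07, SE 1.32, adjusted p = 0.229) did not pass the test in edgeR and passed it in DESeq2 (-4.11, adjusted p = 0.0247).

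Mmp8, Mmp12 and Mmp13 lie in one group of 10 Mmp genes on mouse chromosome 9, which spans 427 kb (7272514 to 7699585, mm10). The order along the chromosome is Mmp13, Mmp12, Mmp1b, Mmp3, Mmp1a, Mmp10, Mmp8, Mmp27, Mmp20 and Mmp7. The 7 other genes had a highest group mean of 0.700 to 2.37 CPM. The other 3 were highest in different groups: Mmp12 (7347374 to 7360461) in pop4, Mmp8 (7558429 to 7568486) in monocytes and Mmp13 (7272514 to 7283333) in pop3. Mmp12 and Mmp13 were both above 10 CPM in pop3 HFD library 3 (183 and 44.9 CPM), pop4 HFD library 3 (1017 and 32.2 CPM) and pop3 HFD library 2 (10.5 and 10.1 CPM). Elsewhere a high level of 1 gene went with a low level of the other. For Mmp12 and Mmp13, pop4 CD library 8 had 1333 and 1.48 CPM, and pop3 CD library 8 had 4.91 and 155 CPM. The 250 bases upstream of the start of Mmp13, Mmp12 and Mmp8 are printed to show how the starts of 3 neighbours with 3 different expression patterns compare. Sequences are from RefSeq on GRCm38.p6, all on the plus strand, from chr9:7272264-7272513 for Mmp13, chr9:7347124-7347373 for Mmp12 and chr9:7558179-7558428 for Mmp8. Capitals mark matches, on either strand, to TATAAA (the TATA box), TGANTCA (the AP-1 site) and GAGGAAG (the core of the site of PU.1, a myeloid transcription factor).
Mmp13: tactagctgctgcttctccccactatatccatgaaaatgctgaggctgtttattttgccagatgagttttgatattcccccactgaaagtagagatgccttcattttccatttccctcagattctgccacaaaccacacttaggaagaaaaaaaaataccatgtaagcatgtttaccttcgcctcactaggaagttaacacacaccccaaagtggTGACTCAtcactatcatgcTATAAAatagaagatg
Mmp12: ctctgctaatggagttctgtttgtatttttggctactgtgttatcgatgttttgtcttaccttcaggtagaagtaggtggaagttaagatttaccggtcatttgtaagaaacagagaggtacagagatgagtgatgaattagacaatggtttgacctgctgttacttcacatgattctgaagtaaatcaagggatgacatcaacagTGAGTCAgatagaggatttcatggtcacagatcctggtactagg
Mmp8: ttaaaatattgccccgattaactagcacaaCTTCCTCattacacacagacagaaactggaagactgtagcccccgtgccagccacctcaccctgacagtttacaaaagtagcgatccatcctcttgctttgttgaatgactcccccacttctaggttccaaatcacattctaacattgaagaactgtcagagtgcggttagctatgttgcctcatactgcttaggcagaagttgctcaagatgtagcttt
The Mmp13 sequence held TGACTCA at 35 to 29 bases before the start and TATAAA at 16 to 11 bases before it. The Mmp12 sequence held TGAGTCA at 44 to 38 bases before the start and no TATAAA. The Mmp8 sequence held neither, and had GAGGAAG on the minus strand (read as CTTCCTC above) at 220 to 214 bases before the start. Among the upstream sequences of all 10 neighbours, 8 held TGANTCA and 7 held TATAAA, against 6.53% and 12.2% of 15152 sequences of the same length. The motif GAGGAAG was in 2 of the 10 and in 10.6% of all, and the NF-kB motif was in none of the 10 and in 0.389% of all. TGANTCA was thus found beside neighbours above and below 5 CPM. The number of CG dinucleotides was 1 for Mmp13, 2 for Mmp12 and 4 for Mmp8, against a median of 9.0 over all sequences. Among described genes present in every library it was 21 for Timp2, 29 for Adam10, 23 for Adam17 and 7 for Adam19. It was also 18 for Adam15, 17 for Adam22, 6 for Adam8 and 33 for Mmp24. Among genes high in few libraries it was 35 for Adamts3, 27 for Adam23, 18 for Timp3 and 14 for Mmp11. It was 10 for Mmp14, 6 for both Timp1 and Adamts12 and 4 for Adam1a. Both sets thus held values above and below the median. Of the 31 described genes, 19 had an upstream sequence in the RefSeq set used. Mmp9, Mmp19, Adam9 and Adam33 were not among them. A match is a match of letters and not a bound site.

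Mmp19, which acts on basement membrane proteins, was present in every library, at 15.3 to 59.2 CPM in monocytes and 24.4 to 185 CPM in adipose cells. Its pop4 libraries (139 and 117 CPM on CD, 116 and 185 CPM on HFD) were all above those of pop3 (41.6 and 39.3 CPM on CD, 24.4 and 91.2 CPM on HFD), but the difference did not pass the test (log2 difference -1.52, SE 0.52, adjusted p = 0.0751). Mmp19 was higher in adipose cells than in monocytes (1.08, SE 0.33, adjusted p = 0.0148), and this call was lost without HFD monocyte library 2 and with the background covariate. Mmp2, gelatinase A, was at 52.8 CPM in pop3 CD library 7, 16.7 CPM in monocyte HFD library 1 and at most 8.34 CPM elsewhere. Mmp11, stromelysin 3, was at 24.4 CPM in pop1 HFD library 2 and at most 3.87 CPM elsewhere. The highest group mean of each gene came from a single library. Of the membrane-bound MMPs, Mmp24 was present in all 25 libraries (5.74 to 87.1 CPM) and passed no test. Mmp14, which activates the Mmp2 precursor, reached 40.6 CPM in pop2 HFD library 3 and 10.5 CPM or less elsewhere. Its difference between adipose cells and monocytes (2.71, SE 0.99, adjusted p = 0.0361) was lost in 9 of 25 fits that each left out 1 library, with no filter on low counts, without both pop2 HFD libraries and with the background covariate (adjusted p = 0.139).

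Timp2, the inhibitor with the highest level, followed the sorted populations in steps. It had 885 to 939 CPM in pop1, 863 to 1099.8 CPM in pop2, 601 to 708 CPM in pop3, 336 to 401 CPM in pop4 and 66.3 to 157 CPM in monocytes. Only pop1 and pop2 overlapped. Timp2 was 1 of 4 genes among 16961 (0.0236%) whose Tim4+ libraries were all above pop3, pop3 above pop4 and pop4 above monocytes, and no other member did this. The log2 differences were 2.82 between adipose cells and monocytes (SE 0.16, adjusted p = 1.65e-11), 0.95 between Tim4+ and Tim4- populations (SE 0.15, adjusted p = 2.24e-04) and 0.79 between pop3 and pop4 (SE 0.22, adjusted p = 0.0328). With the background covariate the last 2 were 0.80 (adjusted p = 0.0983) and 0.57 (adjusted p = 0.703) and did not pass the test, and the last was also lost with no filter on low counts and in each of the 8 fits without 1 pop3 or pop4 library. Libraries of one adipose group differed by at most 1.27-fold in Timp2, the narrowest spread among the 31 genes. Diet differences of Timp2 lay between -0.04 and 0.13 (log2) in the 4 adipose populations.

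The other inhibitors behaved differently. Timp1, Timp3 and Timp4 were low in monocytes, where Timp3 did not exceed 0.998 CPM, Timp4 did not exceed 0.380 CPM, and Timp1 was listed at 0 in 7 of 9 libraries with a highest value of 5.29 CPM. In adipose cells they changed from library to library within a group. Timp1 had 71.1 CPM in pop1 CD library 8 and 1.09 CPM in its partner library 7, and 62.5 CPM in pop2 HFD library 2 and 0.233 CPM in library 3. It was steadier in pop4, at 11.5 to 23.4 CPM. Timp3, which binds to matrix and also blocks Adam17, was highest in pop3 HFD library 3 (74.7 CPM), pop1 CD library 8 (63.3 CPM), pop3 CD library 7 (49.3 CPM) and pop1 CD library 7 (41.9 CPM). Timp4 reached 74.2 CPM in pop1 CD library 7 and 57.9 CPM in library 3 of both pop3 HFD and pop4 HFD, and was 0 in 3 adipose libraries. All 4 TIMPs passed the test as higher in adipose cells than in monocytes (adjusted p = 3.57e-05 for Timp3, 0.00622 for Timp4 and 0.0173 for Timp1). The calls of Timp1 and Timp4 were each lost in 3 of 25 fits without 1 library and with the background covariate, and that of Timp1 also without both pop2 HFD libraries. For Timp4 each of the 3 fits left an adipose group with 1 library at 0 counts, which has no finite log2 mean. For Timp1 the fits without pop1 HFD library 2 and without pop2 CD library 8 did the same.

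Genes of stromal progenitors, the fibroblast-like cells of adipose tissue that make much of its matrix, also varied between these libraries. Their 9 genes summed to 57.2 to 1404 CPM in adipose libraries and 14.4 to 53.7 CPM in monocytes. The 3 highest sums were in pop3 CD library 7 (1404 CPM), pop1 CD library 8 (722 CPM) and pop3 HFD library 3 (709 CPM), which are also 3 of the 4 libraries with most Timp3. Adamts5 (an aggrecanase), at 48.2, 58.1 and 81.3 CPM in these 3 libraries, was highest in pop1 HFD library 3 (106 CPM), whose stromal sum was the lowest of all adipose libraries (57.2 CPM). The next highest stromal sums, in pop3 CD library 8 (483 CPM) and pop2 CD library 7 (403 CPM), were beside 3.40 and 4.41 CPM of Timp3. In pop1 CD library 7, with 41.9 CPM of Timp3, the sum was 130 CPM. The part of stromal RNA in the levels of Timp1, Timp3, Timp4, Mmp2, Mmp14 and the ADAMTS genes was not tested.

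**Figure D2:**
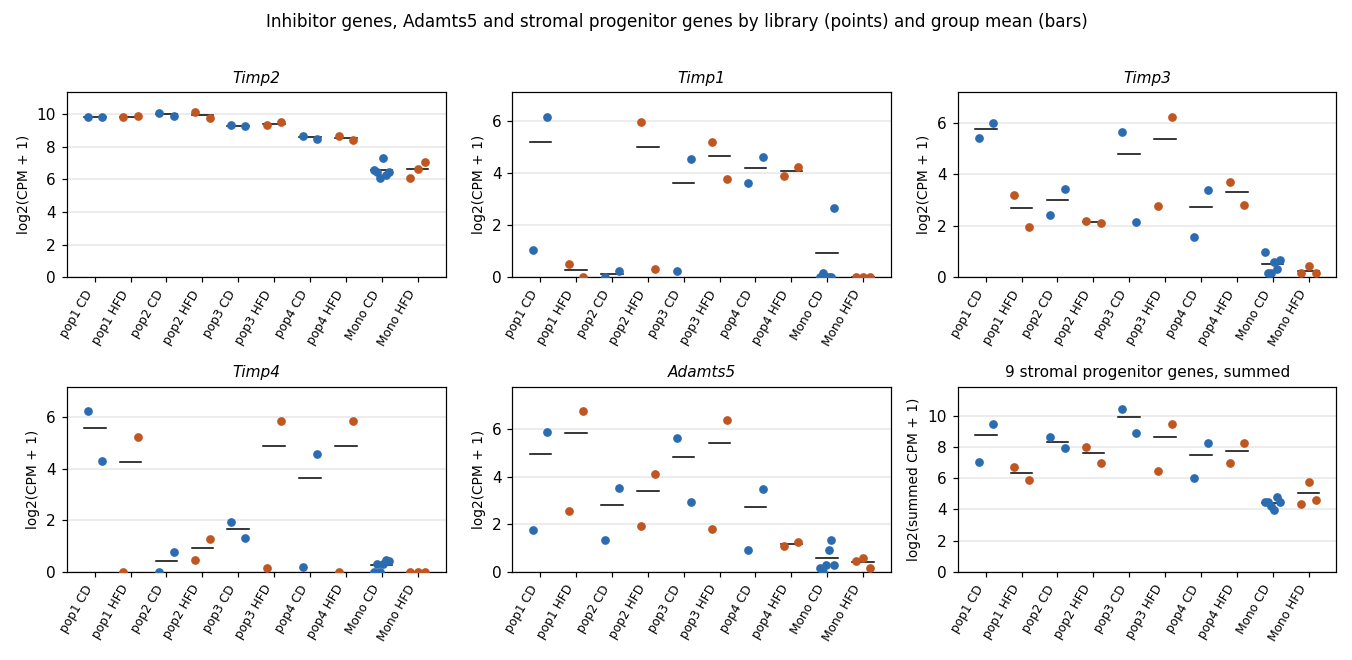
Levels of the 4 Timp genes and Adamts5 as log2(CPM + 1), and of 9 stromal progenitor genes summed, by group; points are libraries (blue CD, orange HFD) and bars are group means. Timp2 steps down from pop1 and pop2 to pop3, pop4 and monocytes with close replicates, while the other genes differ widely between the 2 libraries of some adipose groups.

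The ADAMs held the members with the most even expression. Adam10 and Adam17, the main sheddases of the cell surface (Adam17 releases tumour necrosis factor), were present in every library, at 124 to 459 CPM and 111 to 337 CPM. Adam17 passed no test in any comparison; its log2 difference between adipose cells and monocytes was -0.37 (SE 0.15, adjusted p = 0.0608). Adam10 was lower in Tim4+ populations, with 236 ± 82.2 CPM in pop1 and 249 ± 92.1 CPM in pop2, than in Tim4- populations, with 343 ± 51.5 CPM in pop3 and 396 ± 62.3 CPM in pop4 (SD, n = 4 each). Its Tim4+ libraries had 264 and 319 CPM (pop1) and 299 and 352 CPM (pop2) on CD, and 236 and 124 CPM (pop1) and 154 and 192 CPM (pop2) on HFD, so that the lowest 4 values were those of 4 HFD libraries. The pop3 libraries had 409, 326, 286 and 350.4 CPM and the pop4 libraries 331, 437, 356 and 459 CPM, which overlapped the CD values of Tim4+ cells. The difference of -0.66 (SE 0.14, adjusted p = 0.0029) fell to -0.42 with the background covariate and did not pass the test (adjusted p = 0.413), and the call was also lost without both pop2 HFD libraries.

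Adam8, a protease of activated leukocytes, was the ADAM of pop4, with 212, 179, 214 and 214 CPM. Pop3 had 11.7 and 47.6 CPM on CD and 137 and 89.2 CPM on HFD. Pop1 had 0.650 to 23.4 CPM, pop2 had 5.76 to 32.1 CPM and monocytes had 0.816 to 32.4 CPM. Adam8 was lower in Tim4+ than in Tim4- populations (log2 difference -3.53, SE 0.60, adjusted p = 4.07e-04), also with the background covariate (-3.68, adjusted p = 0.0285). The difference between pop3 and pop4 did not pass the test (-1.82, SE 0.79, adjusted p = 0.151), although the ranges did not overlap.

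Adam33, a membrane protease known from mesenchymal cells and airway disease, had the distribution of Mmp9. It had 87.5, 104, 107 and 184 CPM in pop1, 57.8, 87.6, 109.9 and 92.2 CPM in pop2 and 70.8, 72.0, 67.7 and 42.8 CPM in pop3, in the order CD libraries 7 and 8, HFD libraries 2 and 3. The pop4 libraries lay between 0.123 and 0.673 CPM, and monocytes reached 7.86 CPM. Adam33 was higher in pop3 than in pop4 (adjusted p = 7.19e-04), in Tim4+ than in Tim4- populations (adjusted p = 3.71e-04) and in adipose cells than in monocytes (log2 difference 5.38, SE 0.83, adjusted p = 3.55e-05). Only the last call held with the background covariate (adjusted p = 0.0196; 0.163 and 0.169 for the others). Libraries of one adipose group differed by at most 1.72-fold in Adam33, with values under 3 counts set to 3 counts. In pop3 HFD libraries 2 and 3 the stromal progenitor sum was 87.5 and 709 CPM, beside 67.7 and 42.8 CPM of Adam33. In pop1 CD libraries 7 and 8 the sum was 130 and 722 CPM, beside 87.5 and 104 CPM of Adam33. Other pairs went either way. The part of stromal RNA in the levels of Adam33 was not tested.

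Adam15, whose protein carries an integrin-binding motif, and Adam9 were higher in adipose cells than in monocytes. Adam15 had 55.8 to 176 CPM in adipose libraries and 12.4 to 42.1 CPM in monocytes (log2 difference 1.82, SE 0.23, adjusted p = 3.06e-06), with no overlap. Adam9 had 148 to 518 CPM against 105 to 225 CPM (0.74, SE 0.16, adjusted p = 9.31e-04), with overlap. Adam19 was higher in Tim4+ than in Tim4- populations (0.78, SE 0.24, adjusted p = 0.0340), with 144 ± 47.3 CPM in pop1, 199 ± 75.5 CPM in pop2, 142 ± 65.3 CPM in pop3 and 69.0 ± 37.8 CPM in pop4 (SD, n = 4 each), a call lost in 10 of 25 fits without 1 library, with no filter on low counts and with the background covariate (adjusted p = 0.331). Adam22 and Adam23, which lack protease activity and are known from neurons, differed: Adam22 was present in all libraries (4.36 to 86.5 CPM) and passed no test, and Adam23 was high in pop3 HFD library 3 (37.7 CPM), pop3 CD library 7 (17.1 CPM) and pop4 CD library 8 (14.5 CPM), with at most 4.70 CPM elsewhere. Adam1a, Adam3 and Adam4, known from the testis, were each high in a few libraries, such as Adam1a with 125 CPM in pop2 HFD library 3 and 0.595 CPM in its partner. Adam23 and Adam3 passed the test between pop3 and pop4 (adjusted p = 0.0229 and 0.0451), in which 6 and 15 of 25 fits without 1 library lost the call. Both calls were also lost with the background covariate (adjusted p = 0.283 and 0.199), and that of Adam3 with no filter on low counts and without both pop2 HFD libraries.

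**Figure D3:**
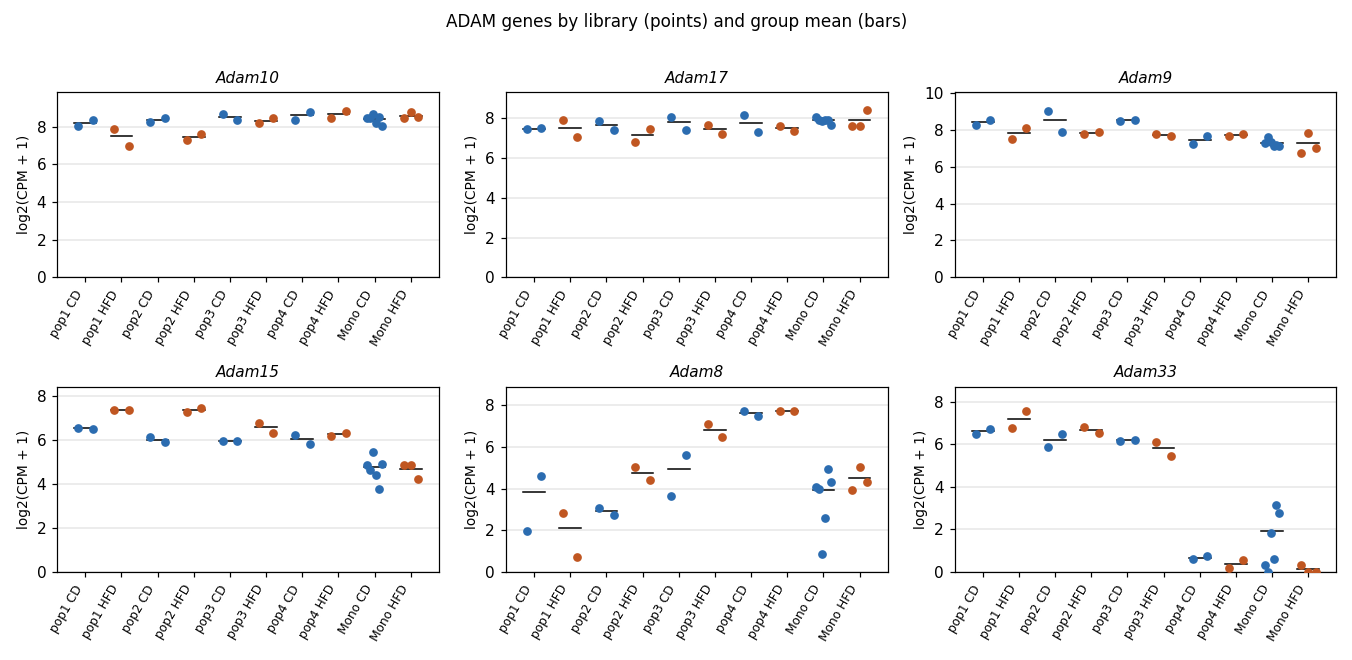
Levels of 6 Adam genes as log2(CPM + 1) by group; points are libraries (blue CD, orange HFD) and bars are group means. Adam10, Adam17 and Adam9 are at 104.8 CPM or more in all 25 libraries, Adam8 is highest in pop4, and Adam33 is at 42.8 CPM or more in every pop1, pop2 and pop3 library.

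Of the ADAMTS proteases, Adamts10, which binds fibrillin microfibrils, was present in all libraries (2.87 to 84.3 CPM) and passed no test. Adamts6 was lower in adipose cells, with 0.237 to 39.8 CPM, than in monocytes, with 4.66 to 48.3 CPM (log2 difference -2.10, SE 0.54, adjusted p = 0.00515), a call lost with the background covariate (-1.26, adjusted p = 0.595). Pop4 had 16.3 and 39.8 CPM on CD and 1.97 and 23.3 CPM on HFD, of which only the 1.97 CPM lay outside the monocyte range. The libraries of pop1 to pop3 had 0.237 to 19.4 CPM. The difference between pop3 and pop4 did not pass the test (-2.79, SE 0.99, adjusted p = 0.0863). The procollagen protease Adamts3 had 24.9 and 23.9 CPM in the pop4 CD libraries and 0 and 0.247 CPM in the pop4 HFD libraries, and 15.9 CPM in monocyte CD library 6. Its relative Adamts14 had 9.72 CPM in pop2 HFD library 2 and 3.97 CPM or less elsewhere. Adamts5 (log2 difference 4.92, SE 1.09, adjusted p = 0.00143) and Adamts12 (3.12, SE 0.87, adjusted p = 0.00859) were higher in adipose cells than in monocytes. Adamts12 had 91.4 CPM in pop1 CD library 8, 44.6 CPM in pop3 CD library 8 and 22.9 CPM in pop4 CD library 7, with 12.8 CPM or less elsewhere. Both calls were lost with the background covariate, and that of Adamts12 also without pop4 HFD library 3. The latter fit left pop4 HFD with library 2 alone, at 0 counts of Adamts12, where the group has no finite log2 mean.

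With values under 3 counts set to 3 counts, and within groups of 2 adipose libraries, 8 of the 31 genes never differed by 3-fold: Timp2, Adam9, Adam10, Adam15, Adam17, Adam19, Adam33 and Adamts3. A difference of over 10-fold in at least 1 group was found in 17 genes, among them Timp1, Timp3, Timp4, Mmp2, Mmp13, Mmp14, Adamts5, Adamts12 and Adam1a. On the map of all 31 genes such a difference appears as 1 bright library beside a darker partner of the same group. Some of the 17 genes were also high in both libraries of other groups, such as Mmp13 in pop2 CD and pop3 CD, and Timp1 and Mmp12 in pop4. Mmp8, also among the 17, was high in all monocyte libraries.

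**Figure D4:**
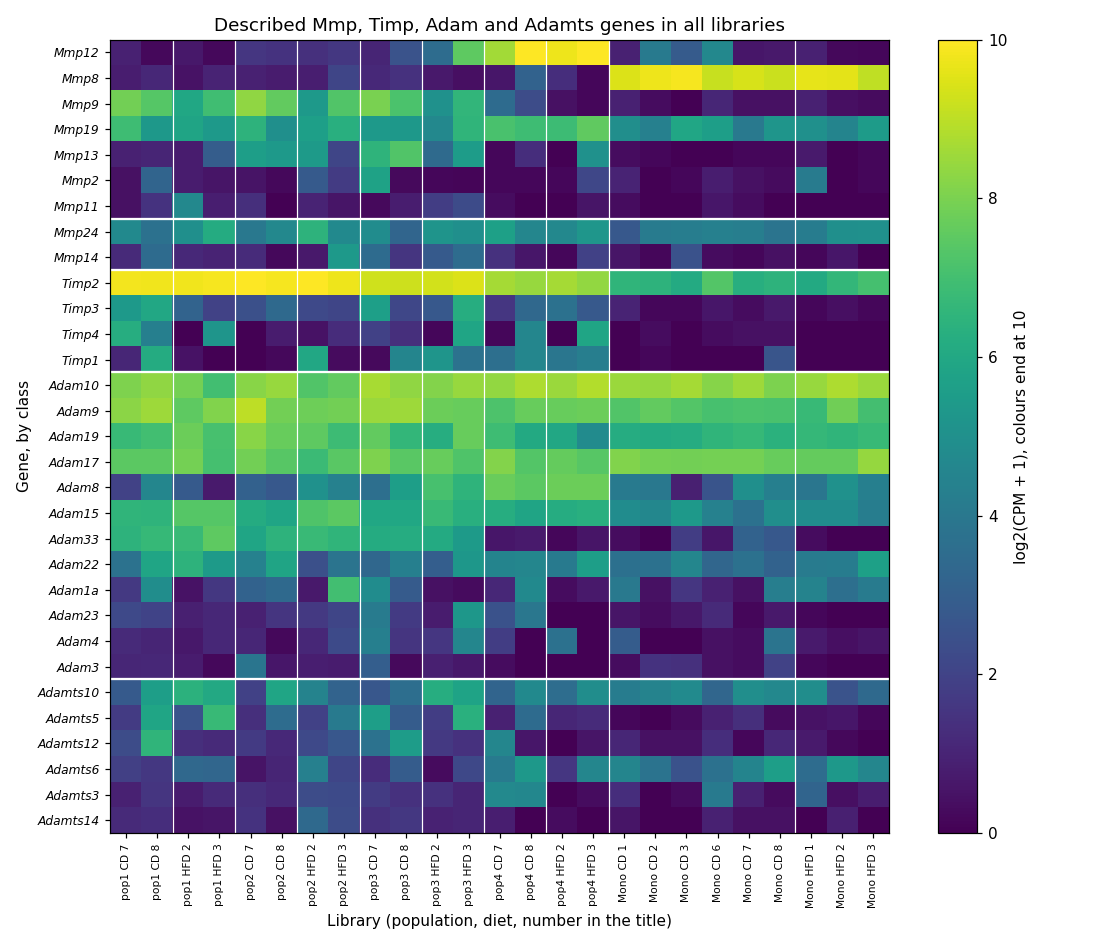
Levels of the 31 described genes (vertical axis, by class, separated by white lines) in all 25 libraries (horizontal axis, by group) as log2(CPM + 1) in colour. Timp2 is bright throughout the adipose libraries, Mmp8 in monocytes and Mmp12 in pop4. Timp4 and Adamts5 are bright in 1 library and darker in its partner in several groups, as is Timp1 in pop1 CD and pop2 HFD.

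To compare genes with each other, CPM were divided by transcript length (CPM per kb). Timp2 led in pop1 (249 ± 6.95), pop2 (275 ± 31.9) and pop3 (178 ± 12.7; SD, n = 4 each). In pop1 Adam9 (70.4 ± 19.3), Adam10 (51.4 ± 17.9) and Mmp9 (45.6 ± 22.6) followed, and their ranges of 1 SD overlapped. In pop2 Adam9 (75.0 ± 36.1), Mmp9 (56.4 ± 37.2) and Adam10 (54.3 ± 20.1) followed, with overlap as well. In pop3 Adam10 (74.7 ± 11.2) and Adam9 (71.7 ± 22.9) followed. In pop4 Mmp12 led with 246 ± 107 CPM per kb, before Timp2 with 103 ± 8.91, Adam10 with 86.2 ± 13.6 and Adam8 with 66.2 ± 5.59 (n = 4). In monocytes Mmp8 led with 292 ± 57.1 CPM per kb, before Adam10 with 76.6 ± 11.5 and Adam17 with 54.1 ± 9.92 (n = 9). The protease with the highest level per length was therefore Adam9 in pop1 and pop2, Adam10 in pop3, Mmp12 in pop4 and Mmp8 in monocytes, though Adam9, Adam10 and Mmp9 overlapped within 1 SD in pop1 and pop2, as did Adam9 and Adam10 in pop3.

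Counted over the 66 members that could be tested, 25 (37.9%) differed between adipose cells and monocytes, 22 higher and 3 lower in adipose cells, against 37% of all genes (18.5% higher and 18.5% lower). The share called was near that of all genes, and the calls leaned to higher. Of the 31 described members, 15 were higher and 2 lower, and the other calls fell on members under 5 CPM in every group. The background sum was 200 to 783 CPM in pop1 to pop3, 80.7 to 206 CPM in pop4 and 85.4 to 243 CPM in monocytes. Its part in this lean was not tested. The median log2 difference was 1.44 over the members and 0.19 over all genes. Between Tim4+ and Tim4- populations 11 members differed (16.7%, 8 higher and 3 lower), against 15.1% of all genes (7.26% higher and 7.79% lower), with medians of 0.82 and 0.14. Between pop3 and pop4 9 members differed (13.6%, 8 higher and 1 lower), against 6.57% of all genes (4.25% higher and 2.32% lower), with medians of 1.67 and 0.17. With the background covariate the counts were 9, 2 and 1. Over all 16961 genes that fit called 624 higher and 856 lower, 158 and 260, and 105 and 41. With DESeq2, which ran without the filter on low counts and so took in all 79 members, the counts were 43, 19 and 22. Over 24035 genes it called 5263 higher and 2746 lower, 2792 and 1495, and 1924 and 735. Without pop4 CD library 8, or without either pop4 HFD library, the count between pop3 and pop4 was 4 to 5. Between pop1 and pop2, which differ in MHCII, edgeR called 0 of 66 members against 0.466% of all genes; 2 had an unadjusted p under 0.05, against 9.81% of all genes, and DESeq2 called 1, Mmp13. Over all genes DESeq2 called 302 higher and 256 lower there.

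Separation of all libraries was counted as well. Every adipose library was above every monocyte library for 3 members, Adam15, Timp2 and Timp3 (4.55%, against 1.3% of all genes), and below for 1, Mmp8 (1.52%, against 2.32%). Every Tim4+ library was above every Tim4- library for Timp2 alone (1.52%, against 0.342%), and below for 0 members (0.336% of all genes). Every pop3 library was above every pop4 library for 16 members (24.2%, against 8.48%) and below for 3, Adam8, Mmp12 and Mmp19 (4.55%, against 6.04%). Of the 16, only Adam33, Adamts14, Mmp9 and Timp2 reached a group mean of 5 CPM. The background sum was 200 to 687 CPM in pop3 and 80.7 to 206 CPM in pop4. Its part in this count was not tested. By class, the calls between adipose cells and monocytes are set against the 37% of all genes called. They fell on 8 of 12 secreted MMPs tested (66.7%, 6 higher, 2 lower) and 4 of 4 TIMPs (100%). Lower shares were found in membrane-bound MMPs (2 of 7, 28.6%), ADAMs (5 of 24, 20.8%) and ADAMTS proteases (6 of 19, 31.6%, 5 higher, 1 lower). Except for the TIMPs, these class counts include calls on members that stayed under 5 CPM in every group.

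Diet changed no member by the test in any population. In edgeR 0 of 66 members passed in pop1 (0.436% of all genes did), pop2 (4.19%), pop3 (0.0943%), pop4 (0.0354%) and monocytes (0.0059%). An unadjusted p under 0.05 was reached by 4, 7, 6, 13 and 8 members, against 11.1%, 17%, 11%, 6.99% and 6.89% of all genes, and DESeq2 called 1, 4, 2, 3 and 3 members. Over 24035 genes DESeq2 called 238 higher and 469 lower in pop1, 880 and 1018 in pop2 and 363 and 332 in pop3. In pop4 it called 35 and 105, and in monocytes 35 and 103. Differences of the diet effect passed for 0 members between Tim4+ and Tim4- populations (0.637% of all genes; unadjusted 11, against 12.7%; DESeq2 2) and for 0 between pop3 and pop4 (0.0177%; unadjusted 10, against 6.89%; DESeq2 1). In counts summed over the 4 adipose populations per library number, 0 of 73 members passed (0% of 17806 genes; unadjusted 7, against 12.1%; DESeq2 2). Over all genes DESeq2 called 214 higher and 307 lower for the Tim4 difference of diet effects, and 95 and 51 for that of pop3 and pop4. In the summed counts it called 426 and 252.

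Mmp9 had the most regular diet pattern. Its HFD libraries were below its CD libraries without overlap in each of the 4 adipose populations, and it was the only member to show this; 163 of 16961 genes (0.961%) did. No member had all HFD libraries above CD in each population, which 0.631% of all genes had. The log2 differences were -1.12 in pop1, -1.43 in pop2, -1.65 in pop3 and -4.77 in pop4 (adjusted p from 0.273 to 0.681 in edgeR). In DESeq2 the pop4 difference passed the test (-4.94, adjusted p = 0.00577). The pop4 HFD libraries held 3 counts and 1 count of Mmp9. In the summed counts Mmp9 had 186 and 124 CPM on CD and 33.9 and 85.7 CPM on HFD (-1.37, SE 0.48, unadjusted p = 0.0300, adjusted p = 0.370). The mean of the 4 population differences, taken in the fit of all libraries, was -2.24 (SE 0.46, adjusted p = 0.00557). That fit treats the 4 populations as independent, which the labels leave unstated for equal numbers. With the background covariate the pop1 difference turned to 0.27. The background sum in pop1 was 691 and 640 CPM on CD and 268 and 294 CPM on HFD, so covariate and diet largely coincide there. The 6 macrophage and monocyte genes used as a check were also lower on HFD in pop1 to pop3, where they summed to 2916 to 3901 CPM on CD and 1832 to 2376 CPM on HFD; in pop4 they summed to 2232 and 3243 CPM on CD and 2313 and 2505 CPM on HFD. Their part in the result was not tested.

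Adam15 went the other way in the Tim4+ cells, with 162 and 162 CPM on HFD against 92.5 and 89.2 CPM on CD in pop1, and 151 and 176 CPM against 69.3 and 58.0 CPM in pop2. In pop3 it had 109 and 78.7 CPM on HFD against 60.7 and 61.6 CPM on CD, and in pop4 the diets overlapped. Its summed difference was 0.76 (unadjusted p = 0.012, adjusted p = 0.320), and the pop2 difference passed the test in DESeq2 (1.52, adjusted p = 0.00336) and not in edgeR (1.36, adjusted p = 0.134). Adam10 differed by -0.91 in pop2 (adjusted p = 0.0715) and passed the test in 5 of 25 fits without 1 library. In pop3 both Mmp12 (10.5 and 183 CPM on HFD, 1.07 and 4.91 CPM on CD) and Adam8 (137 and 89.2 CPM, 11.7 and 47.6 CPM) had higher values on HFD. Neither passed the test in edgeR (log2 differences 5.02 and 1.93, adjusted p = 0.210 and 0.550), and Mmp12 passed it in DESeq2 (4.89, adjusted p = 0.0287). Itgax, the gene of CD11c, on whose absence pop3 was sorted, had 24.6 to 43.7 CPM in these HFD libraries against 1.13 to 11.2 CPM on CD and 180 to 192 CPM in pop4. Its part in the result was not tested.

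Genes that act with these proteases were examined in 4 lists. Their calls were checked neither with the background covariate nor in the other alternative runs. Of 18 activators, inhibitors and partners, 5 were higher and 2 lower in adipose cells than in monocytes, and 3 were higher in Tim4+ than in Tim4- cells. These shares (38.9% and 16.7%) were near those of all genes (37% and 15.1%). The median log2 difference between adipose cells and monocytes was 0.30 over this list, against 0.19 over all genes, 0.05 over the shed proteins, 2.45 over the matrix substrates and 0.46 over the other proteases. Rhbdf1, which carries Adam17 to the cell surface, was at 39.2 ± 8.62 CPM in pop1, 37.0 ± 16.2 CPM in pop2, 40.0 ± 28.5 CPM in pop3, 2.65 ± 3.01 CPM in pop4 (n = 4 each) and 0.849 ± 0.866 CPM in monocytes (n = 9). Its difference between adipose cells and monocytes was 4.66 (SE 1.01, adjusted p = 0.00127). Tspan14, a partner of Adam10, was lower in adipose cells (-0.66, SE 0.11, adjusted p = 1.04e-04).

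Of 20 surface proteins known to be shed, 6 were higher and 7 lower in adipose cells (65%, against 37% of all genes). Mertk and Cd163, receptors for dying cells and haemoglobin, were higher in adipose cells (7.63, SE 0.84, and 4.48, SE 0.60). Cd44, the hyaluronan receptor, was lower in Tim4+ than in Tim4- cells (-1.43, SE 0.13, adjusted p = 2.38e-07). In the pop2 diet test, which called 4.19% of all genes, Icam1 and Cd44 were lower on HFD and Il6ra was higher.

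Of 16 matrix substrates, 10 were higher and 2 lower in adipose cells (75%, against 37% of all genes). Dcn (decorin), at 0.878 CPM or less in monocytes and 3.03 to 889 CPM in adipose cells, and Col3a1 are themselves products of stromal cells. Vcan (versican) was at 479 ± 219 CPM in monocytes and 6.38 ± 9.52 CPM in adipose cells (-6.73, SE 0.45, adjusted p = 2.64e-10). Fn1 (fibronectin) was lower in Tim4+ than in Tim4- cells (-2.27, SE 0.21, adjusted p = 2.84e-07) and lower on HFD in pop1 (-1.83, SE 0.41, adjusted p = 0.0480) and pop2 (-2.75, SE 0.43, adjusted p = 7.40e-04). It had 648 and 681 CPM on CD and 125 and 248 CPM on HFD in pop1, without overlap.

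Of 15 other extracellular proteases and inhibitors, 6 were higher and 6 lower in adipose cells (80%, against 37% of all genes). The lower ones included the granule serine proteases Prtn3 (-6.59, SE 0.75) and Elane (-5.05, SE 0.98), and Plaur, the urokinase receptor (-3.01, SE 0.30, adjusted p = 1.16e-07). Plaur had 242 ± 39.5 CPM in pop4, 72.0 ± 46.9 CPM in pop3, 3.25 to 60.2 CPM in pop1, 4.88 ± 4.74 CPM in pop2 and 309.8 ± 54.8 CPM in monocytes. Its differences passed the test between Tim4+ and Tim4- cells (-3.26, SE 0.40, adjusted p = 9.33e-06), between pop3 and pop4 (-2.00, SE 0.52, adjusted p = 0.0258) and between pop1 and pop2 (2.86, SE 0.57, adjusted p = 0.0184). The cysteine protease Ctsl was higher in adipose cells (1.46, SE 0.17, adjusted p = 1.32e-06), and Ctsk, which cuts collagen, was lower in Tim4+ than in Tim4- cells (-2.76, SE 0.79, adjusted p = 0.0215).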

How the data were processed

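The deposited table holds raw counts of reads per RefSeq gene model. STAR 2.5.3a, HOMER and the mouse build mm10 are named in the submitters' processing notes. Strand and the treatment of reads with several matches are not given in the sources used here. Each described gene has 1 copy in the table. CPM were computed from the deposited counts and library sizes scaled by TMM factors (0.893 to 1.15).

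The quasi-likelihood F test of edgeR 4.0.16 under R 4.3.3 (estimateDisp, robust glmQLFit) was applied in 1 fit of all 25 libraries and 10 group means, after filterByExpr. It tested 16961 genes with 15 residual degrees of freedom, and the common biological coefficient of variation was 0.749. P-values were adjusted by Benjamini-Hochberg over all genes, with a threshold of 0.05. The steps were tested on simulated data. Fitted log2 values (SE in parentheses) against groups near 0 vary with the prior count, and for genes at 0 in a whole group only levels and adjusted p are printed. Alternatives were DESeq2 1.42.0, its size factors in edgeR, no filter, a replicate block, the background covariate and leaving out each library.

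Named are all members with a group mean of 5 CPM or more and, of the other lists, genes past the threshold, at most 5 a list and comparison. One gene of these lists is not reported here. The members and lists were chosen with earlier results of these data known. Counting limits cover counting error only, since reads carry no molecular identifiers.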

Additional observations from a re-analysis of the deposited data

Results flagged for a closer look

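Of 15 described genes with a mean of 5 CPM or more in the 6 control monocyte libraries, 2 had 1 library far from the other 5; chance marks about 1 group in 20. Timp2 had 157 CPM in CD library 6, against 67.3 to 92.0 CPM in the other libraries, and the gap was 0.725 of the whole range (limit 0.625). Adam22 had 22.8 CPM in CD library 3, against 7.87 to 12.4 CPM in the other libraries, and the gap was 0.696 of the whole range. The libraries are different ones, and the Timp2 value remained below the lowest adipose value of 336 CPM.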

How the results depend on the processing

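The 66 members tested gave 25 calls between adipose cells and monocytes, 11 between Tim4+ and Tim4- populations, 0 between pop1 and pop2 and 9 between pop3 and pop4. DESeq2, which took in all 79 members, gave 43, 19, 1 and 22. In the diet comparisons, with 0 calls in edgeR, DESeq2 gave 1 in pop1, 4 in pop2, 2 in pop3, 3 in pop4, 3 in monocytes and 2 in the summed counts, and 2 and 1 for the differences of diet effects; the mean of the 4 diet contrasts gave 2 (Mmp9 and Adamts12). The background covariate gave 9 between adipose cells and monocytes, 2 for Tim4 and 1 between pop3 and pop4. Without both pop2 HFD libraries, a choice made after seeing the data, the Tim4 count was 6. Leaving out 1 library gave 16 to 28, 8 to 12, 0 and 4 to 12 calls, 0 to 1 in the pop2 diet comparison and 0 in the other diet comparisons; the lowest adipose count was without HFD monocyte library 3. The 1 call in the pop2 diet comparison was Adam10. A total of 31 genes was described, 30 to 33 when 1 library was left out. Deviations of same-numbered libraries from their group means had r from -0.039 to 0.073 in 40 pairs. In groups of 2 libraries these deviations mirror each other, so pairs of adipose groups enter with the same r for both numbers. The check therefore cannot show that equal numbers are separate animals. With the number as a replicate block the counts were 22, 11, 0 and 8, and 0 for monocyte diet and both differences of diet effects. Of the single-gene differences, 1 changed sign: Mmp9 in the pop1 diet comparison, 0.27 with the background covariate. DESeq2 size factors in edgeR moved the median of all genes from 0.19 to 0.35 between adipose cells and monocytes, from 0.14 to 0.26 for Tim4 and from 0.17 to 0.30 between pop3 and pop4, and the calls over all genes went from 3139 higher and 3139 lower to 3726 higher and 2522 lower in the first. Calls held in every alternative run for Mmp8, Mmp9, Timp2, Timp3, Adam9, Adam15 and Adam33 between adipose cells and monocytes, Mmp12 and Adam8 for Tim4 and Mmp9 between pop3 and pop4. At 2 libraries a group of 200 cells each a limit of 3 counts corresponded to 0.342 to 0.700 CPM.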

Other observations

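Some calls between populations fell on members that never reached a group mean of 5 CPM. They are named here after their values were seen. Between Tim4+ and Tim4- populations, Adamts17 (log2 difference 2.13, adjusted p = 0.0163, edgeR), Adam1b (2.49, adjusted p = 0.0173), Adam29 (adjusted p = 0.0241) and Mmp15 (1.67, adjusted p = 0.0468) passed the test as higher. Between pop3 and pop4, Adamts1, a protease that cuts versican and aggrecan, passed it (5.09, adjusted p = 0.0131), with 3.12 ± 3.22 CPM in pop3 and 0.197 ± 0.311 CPM in pop4 (SD, n = 4 each). Adam29 (adjusted p = 0.00546) had 1.20 ± 0.846 CPM in pop3 and was listed at 0 in all 4 pop4 libraries, and Adamts17 (3.67, adjusted p = 0.0211) had 1.37 ± 0.455 CPM and 0.296 ± 0.431 CPM. These levels lie near the 0.342 to 0.700 CPM that 3 counts are worth. The olfactory and vomeronasal receptor sum was 200 to 783 CPM in pop1 to pop3 and 80.7 to 206 CPM in pop4. With this sum as a covariate the calls that held were Mmp12 and Adam8 for Tim4 and Mmp9 between pop3 and pop4, so that none of the calls named here held. Because the sum differs between these populations, the covariate overlaps with the comparison and cannot separate background from the cells.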
